A study of Rattus norvegicus with 8 samples.

Results

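The transcripts described here are the CREB family and its partners: *Creb1*, *Crem*, *Atf1*, *Atf2*, *Creb3* and *Creb3l1*, the coactivator *Crebbp*, and the Sp factors *Sp1*, *Sp3* and *Sp4*. They were taken by name: every non-control spot whose gene name in the scanner files equals 1 of these symbols. This gave 10 of the 35199 gene names on the array, carried by 23 probes and 50 spots, and all 10 were among the 21332 gene names quantified in all 8 rats. Of the 23 probes, 22 could be quantified; the exception is 1 probe of *Crebbp*, which was not well above background in any rat.

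The rats were adult female Sprague-Dawley rats, all ovariectomized (OVX), and all had undergone status epilepticus (SE), a prolonged seizure state, induced with kainic acid, an agonist of glutamate receptors. The COS group (4 rats) received oil and the CES group (4 rats) received estradiol (E2) replacement, per the sample records as 4 doses of 2 microg, 24 h apart, of which 2 preceded SE and 2 followed it. The records give a kainic acid dose of 16 mg/kg and SE ended after 5 h with pentobarbital. The methods give another dose, diazepam as the drug that ended SE, and E2 injections that all preceded SE. They place tissue collection both at 24 h after SE and at 2 h after seizures became continuous. The data do not settle which account holds. RNA came from the dentate gyrus, the part of the hippocampal formation built around granule cells, and the question asked was how E2 replacement changes its transcripts after SE. Rats without SE were not analysed here, so every value compares seizured rats with seizured rats.

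CREB, the product of *Creb1*, CREM and ATF1 form a close subfamily of leucine zipper factors that bind the cyclic AMP response element (CRE) and are switched on by phosphorylation downstream of synaptic activity. CREM is unusual in that its gene also has an internal promoter, driven by CREs, from which the short repressor ICER is made after stimulation. CREB-binding protein (*Crebbp*) is the acetyltransferase that phosphorylated CREB recruits, *Creb3* and *Creb3l1* encode membrane-bound factors of the endoplasmic reticulum, and Sp1, Sp3 and Sp4 are zinc finger factors that bind GC boxes. In hippocampal neurons CREB is best known for its part in activity-dependent transcription and memory.

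The CREs of *Crem* can be read in its promoter sequences. RefSeq (GRCr8) windows of 300 bases, from 250 before to 50 after a start site, were at hand for 9 of the 10 genes. They were searched on both strands for the full CRE (TGACGTCA), for its shorter core (TGACG, which a full CRE always contains) and for the GC box (GGGCGG). The *Crem* and *Creb1* windows are shown because the *Crem* difference is the largest of the 10 genes, because its start sites differ in CRE content, and because *Creb1* gives the comparison. They run 5′ to 3′ along the gene, with each TGACG or full CRE in capitals. The *Crem* windows lie at chr17:58933816-58934115, chr17:58984547-58984846 and chr17:58985240-58985539, all on the plus strand, and the *Creb1* window lies at chr9:73397259-73397558, plus strand.
Crem, start 1: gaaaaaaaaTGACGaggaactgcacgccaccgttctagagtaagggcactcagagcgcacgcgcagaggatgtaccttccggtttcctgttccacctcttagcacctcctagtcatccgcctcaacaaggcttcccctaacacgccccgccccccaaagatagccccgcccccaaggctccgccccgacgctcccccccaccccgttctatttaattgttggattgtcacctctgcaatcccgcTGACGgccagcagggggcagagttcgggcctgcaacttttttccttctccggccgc
Crem, start 2: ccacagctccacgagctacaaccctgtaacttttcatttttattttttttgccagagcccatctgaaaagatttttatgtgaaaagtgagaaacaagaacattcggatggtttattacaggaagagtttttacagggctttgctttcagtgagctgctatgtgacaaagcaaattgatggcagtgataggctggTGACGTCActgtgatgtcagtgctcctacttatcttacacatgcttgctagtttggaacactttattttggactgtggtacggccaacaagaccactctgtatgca
Crem, start 3: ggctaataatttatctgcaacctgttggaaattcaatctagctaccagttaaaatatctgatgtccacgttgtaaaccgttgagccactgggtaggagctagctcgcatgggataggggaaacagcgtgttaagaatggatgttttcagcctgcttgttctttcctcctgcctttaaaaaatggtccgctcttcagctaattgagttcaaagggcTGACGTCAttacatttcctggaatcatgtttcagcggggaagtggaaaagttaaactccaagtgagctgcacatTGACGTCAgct
Creb1, start 1: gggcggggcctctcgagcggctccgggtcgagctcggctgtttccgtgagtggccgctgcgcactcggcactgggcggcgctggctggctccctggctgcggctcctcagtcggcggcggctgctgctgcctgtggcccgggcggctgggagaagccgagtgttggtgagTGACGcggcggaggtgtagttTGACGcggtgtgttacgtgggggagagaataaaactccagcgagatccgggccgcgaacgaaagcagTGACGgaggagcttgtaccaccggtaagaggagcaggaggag

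The second *Crem* window held 1 full CRE, which begins at base -56 from the start site. The window at the third start held 2, which begin at bases -35 and 40. The first *Crem* window held 2 short cores and no full CRE, together with 3 GC boxes. A full CRE was present in 1.83% of the 33469 promoter windows of the table, a short core in 21.2% and a GC box in 33.1%. In the *Creb1* window there were 3 short cores, 3 GC boxes and no full CRE, and a second *Creb1* window, not shown, held none of the 3 motifs. *Sp1* had 1 short core and 1 GC box. GC boxes without a short core were found in *Sp4* (5), *Atf2* (4), *Crebbp* (3), *Creb3l1* (2), *Creb3* (1) and *Sp3* (1). These are matches of letters and say nothing of which factor was bound.

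Each rat was labelled with 1 dye, and 2 rats of the same group, 1 in Cy3 and 1 in Cy5, shared an array, which made 4 arrays, all on 1 slide. Of the 43379 non-control spots, between 70.7% and 88.9% were valid in a rat, meaning a foreground of at least 2 times the local background. In the Cy3 rats the share was 86.9% and 88.9% in COS and 77.2% and 81.5% in CES. In the Cy5 rats it was 80.1% and 74.6% in COS and 73.4% and 70.7% in CES. A level is the log2 of the background-subtracted intensity over the median of all spots that were valid in that rat. The set of spots behind that median thus differed between the groups. Differences are CES minus COS on that scale, from limma, which carried the dye as a fixed term and a random block for the array, and a gene is called at a Benjamini-Hochberg adjusted p under 0.05 over all 21332 genes. Over all genes the median difference was -0.25, so differences are also given against that median. CES replicate 2 stood apart from the rest of its group most, with a correlation of 0.966 over genes against 0.983 to 0.991 for the other 7 rats. Each array holds rats of 1 group only, so the array could enter the fit as a random block and not as a fixed term. A difference between arrays therefore cannot be told apart from a difference between the groups. In tissue, fewer cells that carry a transcript and less of it per cell cannot be told apart either.

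Of the 10 genes, 7 were lower in CES (*Crem*, *Atf1*, *Creb1*, *Creb3*, *Sp1*, *Crebbp* and *Creb3l1*), 0 were higher, and 3 (*Sp3*, *Atf2* and *Sp4*) did not pass the test. The background is that 28.3% of all genes were called lower, 5.8% higher and 34.1% in either direction. In 5 of the 10 genes (*Crem*, *Atf1*, *Creb1*, *Creb3* and *Creb3l1*) every CES rat lay below every COS rat, which held for 19.8% of all genes. The opposite separation, with all CES values on top, was seen in 0 of the 10 genes and in 1.61% of all genes. The median difference of the 10 genes was -0.66, or -0.40 against the all-gene median. All 10 differences were below 0 in the Cy3 rats and in the Cy5 rats taken separately. The median of all genes was below 0 there too, at -0.31 (Cy3) and -0.21 (Cy5). In the Cy3 rats *Atf2* (-0.06) and *Sp4* (-0.04) lay above that median.

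**Figure D1:**
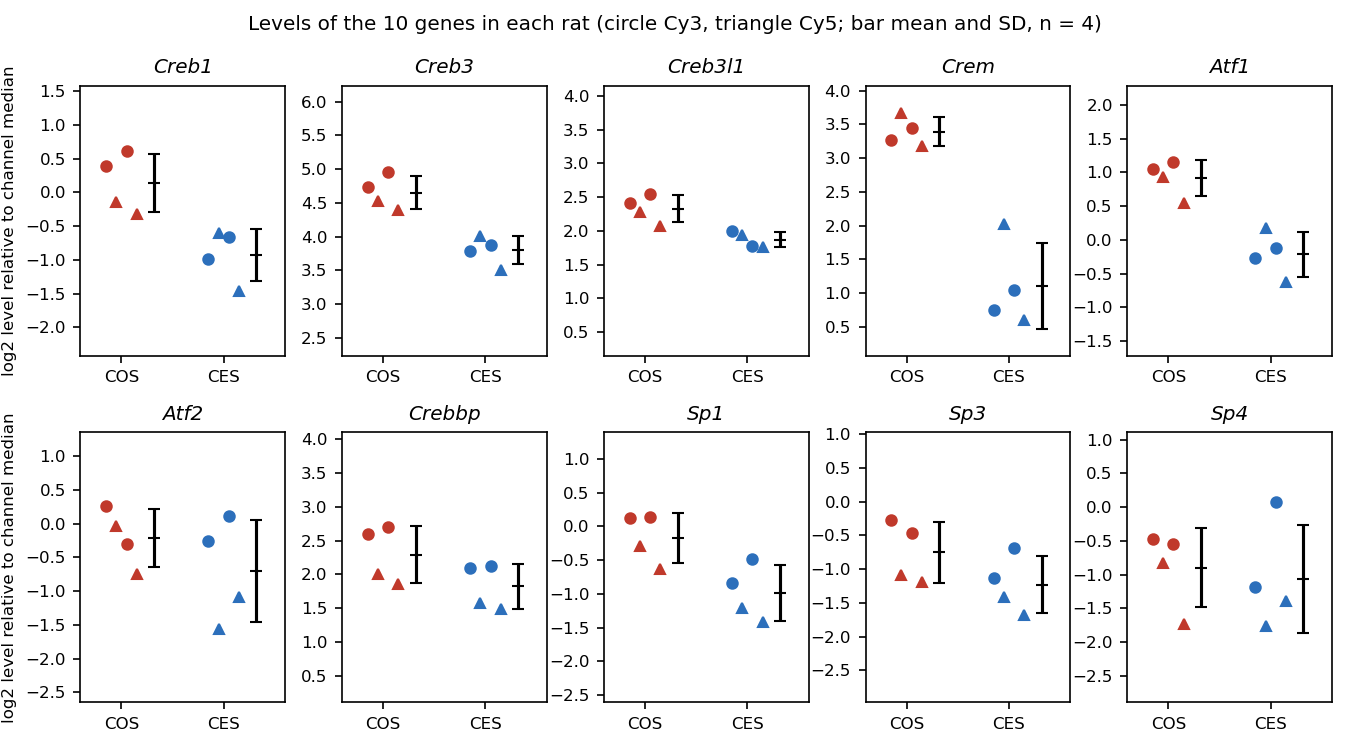
Level of each gene in each rat (y axis: log2 intensity relative to the median of the rat's channel, every panel spans the same number of log2 units), with the 4 COS rats in red, the 4 CES rats in blue, circles for Cy3, triangles for Cy5, and bars for mean ± SD. The COS and CES points are fully apart for *Crem*, *Atf1*, *Creb1*, *Creb3* and *Creb3l1* and overlap for *Atf2*, *Crebbp*, *Sp1*, *Sp3* and *Sp4*.

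*Crem*, which encodes both activators and the ICER repressor, had the largest difference of the 10. Its levels were 3.27, 3.67, 3.45 and 3.18 in COS replicates 1 to 4, and 0.75, 2.02, 1.05 and 0.60 in CES replicates 1 to 4. All CES rats were below all COS rats, and CES replicate 2 was the highest of its group. The COS mean was 3.39 ± 0.22 and the CES mean 1.11 ± 0.64 (SD, n = 4 each). The difference was -2.29 ± 0.29 (SE, 95% interval -2.93 to -1.65, limma adjusted p = 0.0034), or 4.88-fold lower in CES. Against the all-gene median the difference was -2.03. It was -2.46 between the Cy3 rats and -2.12 between the Cy5 rats, and without CES replicate 2 it was -2.60. Without COS replicate 3 the difference was -2.19 and still called (limma adjusted p = 0.047).

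The 3 *Crem* probes were each called lower, and which of them read the activators or the ICER repressor was not determined. In rn4, the build of the scanner files, they lie on chromosome 17, plus strand, and start at 62830680, 62836088 and 62837437. Their differences in that order were -2.00, -2.52 and -1.84 (limma adjusted p = 0.0035, 0.0030 and 0.0041). All 3 showed no overlap between the groups, and the last was well above background in only 2 of the 4 CES rats. The first of them is shown because it reads a stretch with 2 reading frames free of stop codons, and no part of it is marked.
Crem probe at 62830680: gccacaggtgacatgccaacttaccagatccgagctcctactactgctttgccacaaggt

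*Atf1*, the closest relative of CREB beside CREM, had levels of 1.04, 0.93, 1.16 and 0.55 in COS and -0.27, 0.17, -0.12 and -0.63 in CES, replicates 1 to 4. The lowest COS rat was above the highest CES rat, which was again replicate 2. The difference was -1.13 ± 0.21 (SE, 95% interval -1.60 to -0.67, limma adjusted p = 0.0054), or 2.19-fold lower in CES and -0.88 against the all-gene median. Its 2 probes differed by -1.31 and -1.07, both called and both without overlap. The former crosses an exon junction, since its 60 bases span 15898 bases of chromosome 7 (plus strand, from 138979465 to 138995362, rn4), and is shown for that reason, with no part marked.
Atf1 probe across the junction: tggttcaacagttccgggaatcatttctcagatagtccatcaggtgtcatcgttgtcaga

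*Creb1* itself had levels of 0.39, -0.14, 0.61 and -0.32 in COS and -0.98, -0.61, -0.66 and -1.45 in CES. The groups did not overlap, but the gap between COS replicate 4 and CES replicate 2 was narrow. The difference was -1.06 ± 0.22 (SE, 95% interval -1.56 to -0.57, limma adjusted p = 0.0077), or 2.09-fold lower in CES and -0.81 against the all-gene median. This value is an average over the spots of 5 probes, 1 of which has 10 spots and the others 1 each, and the *Creb1* probes disagreed.

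The 5 *Creb1* probes lie along chromosome 9, plus strand, in rn4. The probe with 10 spots starts at 63234620 and differed by -1.46 (SE 0.30, limma adjusted p = 0.0069). A probe that starts 8 bases further on and shares a run of 52 bases with it differed by -1.62, so these are not independent measurements. The array annotation ties both to a sequence record other than that of the probes farther downstream. The probes 1489 and 1792 bases downstream differed by -0.79 and -0.63, both called. The probe farthest downstream, at 3817 bases, differed by -0.32 (95% interval -0.70 to 0.07, limma adjusted p = 0.18) and was not called. That last probe was well above background in all 8 rats, whereas the 10-spot probe was so in 4 COS and 2 CES rats.

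To set the probes against each other with the scaling of the channel cancelled, the level of the farthest probe was subtracted from that of the 10-spot probe within each rat. The result was -1.56, -1.69, -1.77 and -1.79 in COS and -3.01, -2.07, -2.80 and -3.51 in CES. Every CES rat was below every COS rat. The change between the group means was -1.14, given as a description with no test, since the pair of probes was chosen after values were seen. The 10-spot probe is also near background in the 2 CES rats where it was not well above it. With each probe averaged first, *Creb1* differed by -0.67 (limma adjusted p = 0.017), and with the brightest probe alone by -0.32 (limma adjusted p = 0.19).

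**Figure D2:**
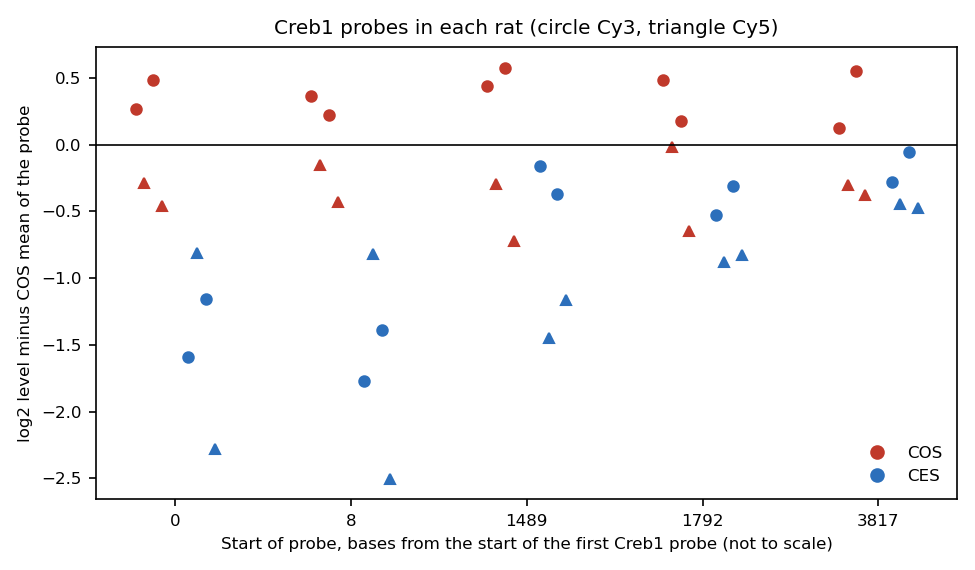
*Creb1* probes in each rat, in order along the chromosome (x axis: start of the probe in bases from the start of the first, not to scale, y axis: log2 level minus the COS mean of that probe), COS in red, CES in blue, circles Cy3, triangles Cy5. The groups are apart at 0 and 8 bases and overlap at 1489, 1792 and 3817 bases.

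*Crem* was set beside its relatives in the same way, again as a description, since the pairs were chosen with the *Crem* difference known. *Crem* minus *Creb1* was 3.26 ± 0.48 in COS against 2.03 ± 0.43 in CES (SD, n = 4 each). *Crem* minus *Atf1* was 2.47 ± 0.25 in COS against 1.32 ± 0.37 in CES. Neither overlapped between the groups. The size of these changes rests in part on values near background, since 4 of the 5 *Creb1* probes and the junction probe of *Atf1* were well above background in only 2 of the 4 CES rats.

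*Atf2*, a factor of the same zipper class that answers to stress kinases and binds the CRE with Jun proteins, did not pass the test. Its levels were 0.26, -0.03, -0.30 and -0.75 in COS and -0.26, -1.56, 0.11 and -1.08 in CES. The groups overlapped widely. The difference was -0.49 (95% interval -1.08 to 0.09, limma adjusted p = 0.17), and the dyes differed, with -0.06 between the Cy3 rats and -0.93 between the Cy5 rats.

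*Creb3*, which encodes a factor released from the endoplasmic reticulum by cleavage, was lower in CES. Its levels were 4.73, 4.53, 4.95 and 4.39 in COS and 3.79, 4.01, 3.87 and 3.51 in CES. The groups did not overlap. The difference was -0.85 ± 0.17 (SE, 95% interval -1.24 to -0.46, limma adjusted p = 0.0073), or 1.81-fold lower in CES and -0.60 against the all-gene median. Its 2 probes differed by -0.95 and -0.65, both called and without overlap. The latter spans 657 bases of chromosome 5 (plus strand, rn4) and so also crosses a junction; it is shown for comparison with that of *Atf1*, with no part marked.
Creb3 probe across the junction: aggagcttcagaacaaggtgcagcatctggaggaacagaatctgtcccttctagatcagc

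*Creb3l1*, its relative with a role in secretory cells, had a single probe. Its levels were 2.42, 2.28, 2.54 and 2.08 in COS and 2.01, 1.93, 1.78 and 1.77 in CES. The groups did not overlap, but the call was marginal. The difference was -0.46 ± 0.16 (SE, limma adjusted p = 0.049), or -0.20 against the all-gene median, and with the replicate number as a block the limma adjusted p was 0.063.

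*Crebbp* was called lower with overlapping groups. Its levels were 2.60, 2.00, 2.70 and 1.86 in COS and 2.09, 1.58, 2.12 and 1.49 in CES. Within each dye both CES rats were below both COS rats, and the Cy3 rats were above the Cy5 rats in both groups. The difference was -0.47 ± 0.15 (SE, limma adjusted p = 0.034), or 1.39-fold lower in CES and -0.22 against the all-gene median. The value rests on a probe with 10 spots, which differed by -0.47 (called), while a probe that crosses a junction differed by -0.36 (limma adjusted p = 0.21).

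Of the Sp factors, *Sp1*, the broadly expressed member, was called lower. Its levels were 0.12, -0.30, 0.14 and -0.63 in COS and -0.84, -1.20, -0.48 and -1.42 in CES. Only COS replicate 4 and CES replicate 3, which carried different dyes, overlapped. The difference was -0.82 ± 0.17 (SE, 95% interval -1.19 to -0.45, limma adjusted p = 0.0070), or 1.76-fold lower in CES and -0.56 against the all-gene median. The probes starting 22749 and 26748 bases downstream of the first *Sp1* probe on chromosome 7 (rn4) differed by -0.97 and -1.11 without overlap. The first probe, with 10 spots of which 8 were valid in all rats, differed by -0.41 (limma adjusted p = 0.21). It rose well above background in only 1 COS and 2 CES rats.

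*Sp3*, which can activate or repress at the same GC boxes, just missed the threshold. Its levels were -0.27, -1.09, -0.47 and -1.19 in COS and -1.13, -1.42, -0.69 and -1.68 in CES, with overlap between the groups. The difference was -0.48 (95% interval -0.85 to -0.10, limma adjusted p = 0.051). One probe was called (-0.62, limma adjusted p = 0.035) and the other was not (-0.26, limma adjusted p = 0.21). The probe that was not called crosses a junction and spans 2224 bases of chromosome 3 (minus strand, rn4); it is shown to identify it, with no part marked.
Sp3 probe across the junction: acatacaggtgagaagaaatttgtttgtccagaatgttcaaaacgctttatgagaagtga

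*Sp4*, the member best known from neurons, had levels of -0.47, -0.83, -0.54 and -1.73 in COS and -1.18, -1.76, 0.08 and -1.40 in CES. The highest and the lowest of the 8 rats were both in CES. The difference was -0.17 (95% interval -0.82 to 0.48, limma adjusted p = 0.68), an interval wide enough to hold the differences of *Crebbp* and *Creb3l1*. The longest run of bases shared by probes of different genes among the 10 was 10 bases.

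**Figure D3:**
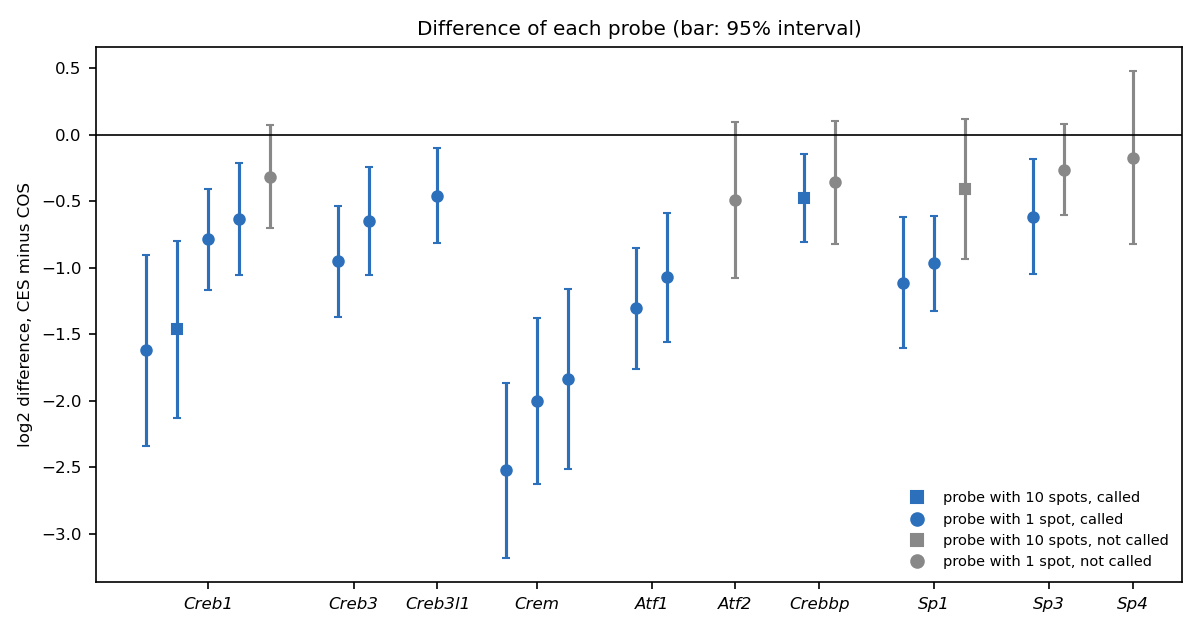
Difference of each of the 22 quantified probes (y axis: log2, CES minus COS, bars: 95% interval from limma), grouped by gene, with blue for called and grey for not called, squares for probes with 10 spots and circles for probes with 1 spot. All 22 lie below 0, as does the median of all probes (-0.27), and 16 are called. The *Sp4* probe and the uncalled *Sp3* probe lie above that median. *Creb1*, *Crebbp*, *Sp1* and *Sp3* hold both called and uncalled probes.

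By probe, 16 of the 22 were called lower and 0 higher, beside 29% and 5.48% of all 25698 probes (34.5% in either direction). Which genes were called depended on the scaling, which also moved the median of all genes. After loess within and Aquantile between arrays the median of all genes was 0.06, and 9.52% of genes were called lower and 13.6% higher. *Crem* (-1.93), *Atf1* (-0.75), *Creb3* (-0.54) and *Sp1* (-0.48) were still called, *Creb1* was at -0.71 with a limma adjusted p of 0.052, *Crebbp* and *Creb3l1* fell to -0.09 and -0.07 and lost the call, and *Sp4* turned to 0.17. Leaving out COS replicate 3 left 1 of the 7 calls, that of *Crem*. Over all 21332 genes the calls lower fell from 6038 to 914. The adjusted p of *Atf1*, *Creb1*, *Creb3* and *Sp1* then ran from 0.054 to 0.069 (limma), with differences of -0.77 to -1.06.

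**Figure D4:**
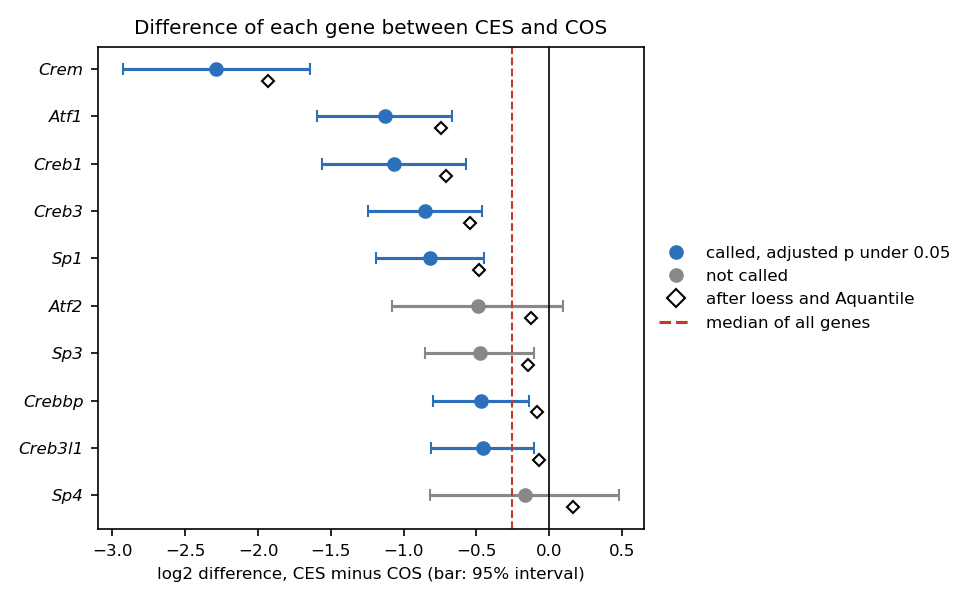
Difference of each gene (x axis: log2, CES minus COS, points with 95% interval from limma, blue called, grey not called), with open diamonds for the same difference after loess and Aquantile and a dashed line for the median of all genes, -0.25. *Crem* lies apart from the rest under both scalings, and the diamonds of *Crebbp*, *Creb3l1*, *Sp3*, *Atf2* and *Sp4* lie close to 0.

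Genes around the family were described by lists, chosen with earlier results of these data known. Over all genes, 28.3% were called lower and 5.8% higher. After loess and Aquantile these shares were 9.52% and 13.6%. Without COS replicate 3, 914 of the 21332 genes were lower and 257 higher. Of 13 quantified kinases that phosphorylate CREB or control those that do, 4 were lower and 0 higher, with a median of -0.28, close to that of all genes. The 2 largest were *Rps6ka3* (-1.54), which encodes the CREB kinase RSK2, and *Prkar2a* (-1.02), a regulatory subunit of protein kinase A. Of 9 other coactivators, 3 were lower and 0 higher, with a median of -0.21. *Cited1* (-2.68) and *Cited2* (-1.63), which encode proteins that bind CBP and p300, moved most. *Ep300*, which encodes p300 itself, was at -0.19 and not called.

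Of 9 quantified genes that limit the pathway, 3 were lower and 1 was higher, beside 28.3% and 5.8% of all genes. Their median was -0.25. *Sik1*, the kinase that keeps CREB coactivators out of the nucleus and is itself a CREB target, was lower (-1.98), as was *Pde4b* (-0.90), a phosphodiesterase that degrades cyclic AMP. *Pde4a*, of the same phosphodiesterase family, was higher (0.68, limma adjusted p = 0.016). After loess and Aquantile 2 kinases, 2 coactivators and 1 gene that limits the pathway were lower, and 0, 1 and 2 of these lists were higher. Without COS replicate 3 the lower calls were 1, 1 and 1, with 0 higher. Of the other Sp factors on the array, 1 of 6 could be quantified, *Sp9*, at -0.15 and not called.

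Among 10 other zipper factors of the CREB and ATF families, 5 were lower and 0 higher, beside 28.3% and 5.8% of all genes. Their median was -0.56. *Atf3*, the stress-induced repressor, had the largest difference of any list, -5.59 ± 0.94 (SE, limma adjusted p = 0.0045). It was between 5.23 and 5.85 in COS and at -0.49, 3.47, -1.11 and -2.09 in CES replicates 1 to 4. CES replicate 2 was again nearest to COS. *Nfil3*, another zipper repressor, was at -2.28. Of these 10 zipper factors 3 were lower after loess and Aquantile and 2 without COS replicate 3. Of 9 genes of the endoplasmic reticulum stress response, in which *Creb3* and *Creb3l1* are placed, 6 were lower and 0 higher, with a median of -0.63, led by the chaperones *Pdia4* (-1.40) and *Dnajb9* (-0.91). This count depended on the scaling: 1 of the 9 was called after loess and Aquantile and 1 after quantile normalization. The count was 0 with scaling over spots valid in all rats, with normexp background correction and in the deposited log2 table. It was 1 without COS replicate 3. The median of the 9 genes after loess and Aquantile was -0.35.

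Of 22 quantified genes known as CREB targets, 20 were lower in CES and 0 higher, beside 28.3% and 5.8% of all genes. Their median difference was -1.83, or -1.58 against the all-gene median. *Inhba*, which encodes a subunit of activin, differed by -4.32 (SE 0.71), and *Fos*, the immediate early gene, by -4.25 (SE 0.75). *Inhba* was between 5.07 and 6.22 in COS and at 1.15, 3.90, 0.70 and -0.15 in CES. *Fos* was between 4.27 and 5.82 in COS and at -0.22, 3.73, 0.25 and -0.15 in CES. In both, CES replicate 2 was nearest to COS and below every COS rat. The neuropeptide genes *Tac1* (-3.75), *Penk* (-2.74) and *Crh* (-2.53) and the growth factor *Bdnf* (-1.48) were also lower. The 2 targets that did not pass were *Nr4a3* (0.03) and *Ppargc1a* (-0.28). The count was 20 without CES replicate 2 and 8 without COS replicate 3, and the median was then -2.05 and -1.69. Without COS replicate 3, 914 of all 21332 genes were lower. After loess and Aquantile 14 were lower, with a median of -1.52.

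**Figure D5:**
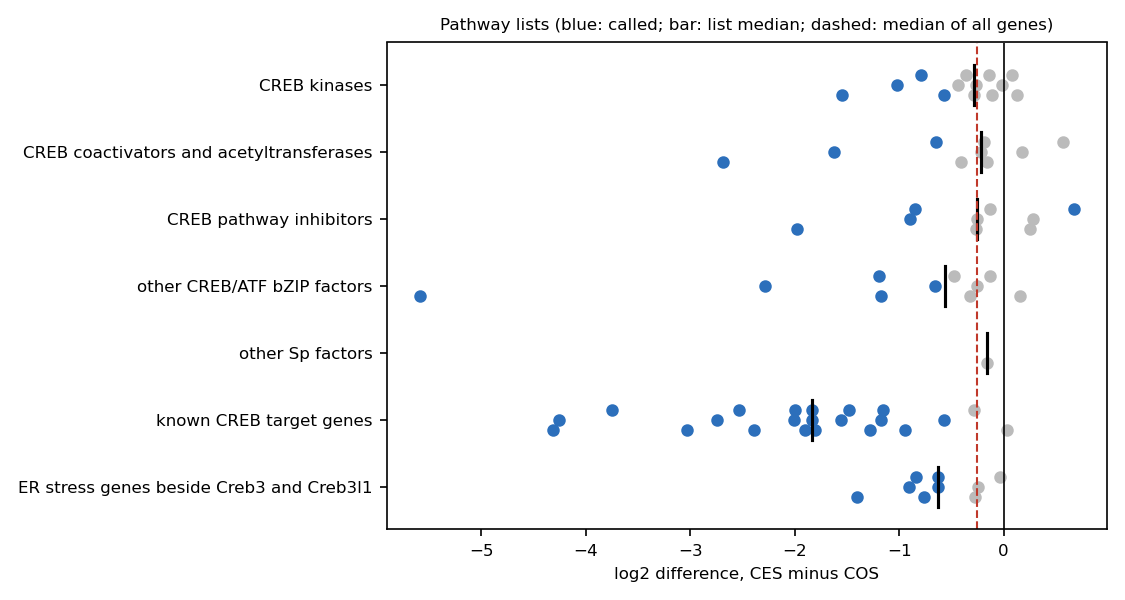
Difference of each quantified gene of 7 lists (x axis: log2, CES minus COS, blue called, grey not called, black bar: median of the list, dashed line: median of all genes, vertical offsets only separate the points). Of 22 CREB targets, 20 are called lower, while the medians of the kinases, coactivators and inhibitors lie near the dashed line.

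Some markers of cell types were called as well, beside 28.3% of all genes called lower and 5.8% higher. The part of cell types in these results was not tested. Of 6 quantified granule cell markers, 3 were lower (*C1ql2*, *Dsp* and *Tdo2*) and 1 higher (*Neurod1*, 1.16); *Prox1*, which defines these cells, was not well above background in any of the 8 rats. The log2 of the summed granule cell levels overlapped, from 4.04 to 4.90 in COS and from 4.25 to 4.68 in CES. Of 6 pyramidal cell markers 2 were higher, *Wfs1* (0.98) and *Pou3f1* (2.23), and the log2 of their summed levels ran from 6.58 to 7.45 in COS and from 7.10 to 7.80 in CES. Of 6 microglial markers 3 were lower (*Cd68*, *Itgam* and *Csf1r*), with sums of 4.92 to 5.55 in COS and 4.08 to 4.63 in CES. Of 5 endothelial and pericyte markers 4 were lower (*Flt1*, *Pdgfrb*, *Vwf* and *Kdr*), with sums of 5.50 to 6.13 and 4.33 to 5.52. Of 5 interneuron markers 1 was lower (*Vip*), of 6 astrocyte markers 2 were higher (*Aldh1l1* and *Gja1*) and 1 lower (*S100b*), of 6 oligodendrocyte markers 0 were called, and of 5 choroid plexus and ependymal markers 1 was lower (*Foxj1*), with sums that ranged widely in both groups. The marker counts moved with the scaling. After loess and Aquantile 2 endothelial, 1 microglial and 1 granule cell marker were lower and 4 pyramidal cell markers were higher. With scaling over spots valid in all rats the lower calls were 1, 1 and 0, and 4 pyramidal cell markers were higher. Without COS replicate 3 they were 1, 0 and 0, with 1 pyramidal cell marker higher. Over all genes 9.52% were lower and 13.6% higher after loess and Aquantile. Without COS replicate 3, 914 of the 21332 genes were lower and 257 higher.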

How the data were processed

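RNA of the dentate gyrus of 8 rats was measured on 4 Agilent rat arrays of 60-base probes, 1 rat in each dye. The deposited scanner files hold, per spot and channel, the mean intensity and the background median, extracted with Agilent Feature Extraction 10.7.3.1 per the submitters' processing notes, before normalization by the authors. A further deposited file holds log2 values of the same channels and served as an alternative. Groups, replicates and dyes came from the sample records.

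The validity filter (foreground at least 2 times background), the background subtraction, the division by the channel median and the averaging over spots of a gene follow the methods; the iterative renormalization that they describe was not used here. Spots had to be valid in all 8 rats. CES was compared with COS in limma 3.58.1 (R 4.3.3, data.table, version 1.17.8, statmod 1.5.0), two-sided, over 21332 genes and likewise over 25698 probes, with a fixed term for dye and a random block for array (estimated correlation -0.006). The median SE of a difference was 0.20. The number of arrays limits the precision. The fit was tested on simulated data of this comparison, in which 200 of 21332 genes were changed. It recovered 41% of the changes of size 1 and 93% of those of size 2 (log2), with 7 false calls among 141. In the rats 34.1% of genes were called, and recovery and false calls with so large a share were not tested. Sequences and figures were handled in Python 3.11.15 with pandas 2.3.3 and matplotlib 3.10.9.

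Rats of different groups with the same replicate number deviated together (r = 0.32, 0.21, 0.29 and 0.34 for numbers 1 to 4); such rats share a dye, and rats of the same dye with different numbers correlated at 0.21 to 0.44. Alternatives covered the background correction, scaling, filters, dye, blocks, probe choice, the methods' t-test and leaving out each rat. The 10 genes and the lists were chosen with earlier results of these data known. Beyond the 10 genes, up to 2 rises and 2 falls among the called genes of each list were to be named; further list members were named after their values were seen. Probe positions are those of the files (rn4) and promoters are from RefSeq (GRCr8); no promoter entry was used for *Atf1*. The records do not say whether the rats of a group were handled together, so p-values measure the spread between these rats.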

Additional observations from a re-analysis of the deposited data

How the results depend on the processing

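*Crem* was called lower in 23 of 24 alternatives, with differences from -2.60 to -1.88, and lost the call under the methods' t-test alone (adjusted p = 0.077). *Creb3* and *Atf1* were called in 21 of 24, *Sp1* in 20, *Creb1* in 18, *Crebbp* in 10 and *Creb3l1* in 7, and *Sp3* passed in 4 of 23. No call reversed; the uncalled *Sp4* changed sign with scaling (up to 0.26). The 10 genes gave 1 call lower with normexp, and 4 with loess and Aquantile as well as with scaling over spots valid in all rats. The methods' t-test gave 0 calls lower and 0 higher over all genes after Benjamini-Hochberg adjustment, against 6103 genes and 6 of the 10 at an unadjusted p under 0.05, and 9633 genes by limma. The median of the 10 genes was -0.38 with normexp, -0.31 with loess and Aquantile, and -0.31 with quantile normalization. It was -0.26 with scaling over spots valid in all rats and -0.29 in the deposited log2 table. With only spots well above background in all rats, *Atf2*, *Sp3* and *Sp4* dropped out, and the median of the remaining genes was -0.85. Genes called higher and lower numbered 123 and 454 with normexp, 2910 and 2030 with loess and Aquantile, 3051 and 2221 with quantile normalization, 3348 and 1718 with scaling over spots valid in all rats, 404 and 2696 with no filter on valid spots, and 3275 and 1927 in the deposited table. Where spots had to reach 3 times their background, 2828 genes were lower. Leaving out each rat in turn gave 257 to 1855 genes higher, 914 to 7012 lower, 1 to 8 of the 10 genes lower and a median of -0.74 to -0.61 for them; the lowest counts came without COS replicate 3. Without COS replicate 1, COS replicate 2, COS replicate 4 or CES replicate 1, *Crebbp* and *Creb3l1* lost the call. *Creb3l1* also lost it without CES replicate 3 or CES replicate 4, and *Sp3* gained it without CES replicate 2, 3 or 4. The replicate block, which pairs rats by number, gave 1076 genes higher and 6131 lower and 6 of the 10 genes lower; of these only the call of *Creb3l1* changed. Averaging each probe before the gene, an alternative chosen after seeing the data, kept all 7 calls. Scaling over spots valid in all rats changes only the median that divides each rat, and so moves all genes of a rat alike. The median of the CREB targets was -1.43 there, and against the all-gene median it stayed at -1.58. The cause of the other shifts was not tested. Signal over background limits the values of the 10-spot *Sp1* probe, of 4 *Creb1* probes, of 1 probe each of *Crem* (the farthest downstream) and *Atf1* (across the junction), of 2 *Crebbp* and both *Sp3* probes and of the only *Atf2* and *Sp4* probes, which were not well above background in every rat.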
